A study of Mus musculus with 6 samples.

Results

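Among 831 testis transcripts listed in the authors' deposited table for a difference between normal and high-fat food, 9 belonged to 5 genes of the sperm tail and acrosome, Ropn1, Crisp2, Iqcg, Mycbpap and Catsperg1. The 9 were chosen by gene symbol and by shared locus identifier in that table, so the diet contrast itself selected them and its values are given here as a description, with no test. Of the 9 transcripts, 7 carried an Ensembl identifier and 2 had been assembled by the authors from their reads, 1 at the Ropn1 locus and 1 at the Iqcg locus. Only 2 of them, Ropn1-201 and Mycbpap-202, were marked in the table as the canonical transcript of their gene.

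The testes came from C57BL/6 mice that had eaten normal food or high-fat food for 8 weeks, and 3 libraries that keep the strand of the RNA were sequenced from each group. The normal-diet libraries are numbered 7 to 9 and the high-fat libraries 10 to 12, and the numbers pair nothing between diets. The labels state neither the age of the mice nor that each library came from its own mouse, so the spread between libraries may be partly technical. Per its title, the study asked about thermogenesis pathways in the testis of obese mice.

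Sperm move by means of a flagellum whose core, the axoneme, carries dynein motors, a pair of central microtubules with their projections, and a regulatory complex that ties the dyneins to their neighbours. Around this core lie the outer dense fibres and the fibrous sheath, which holds signalling and glycolytic proteins, and the membrane of the tail carries the calcium channel CatSper. The acrosome is the vesicle over the sperm head that opens at the egg. All of these structures are built in spermatids in the testis, and many of their genes are transcribed there in more than 1 form.

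Levels are given as normalized counts, which are the deposited counts of a transcript divided by the authors' size factor of the library. In the authors' deposited table the adjusted p of the 9 transcripts ranged from 1.43e-137 for Ropn1-202 to 0.048 for Ropn1-201, against a highest value of 0.0497 for any listed transcript. These are the values that chose them. The high-fat level was the higher one for 6 of the 9 and the lower one for 3. Of the 95751 transcripts that the authors tested, 0.868% were called, 0.48% as higher and 0.387% as lower. In all 9 the 3 normal-diet values and the 3 high-fat values did not overlap, which was so for 91.3% of the table, and nothing is read from either share because the same contrast chose the members. The median of the authors' log2 fold change was 1.52 over the 9 transcripts and 1.42 over all 831.

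**Figure D1:**
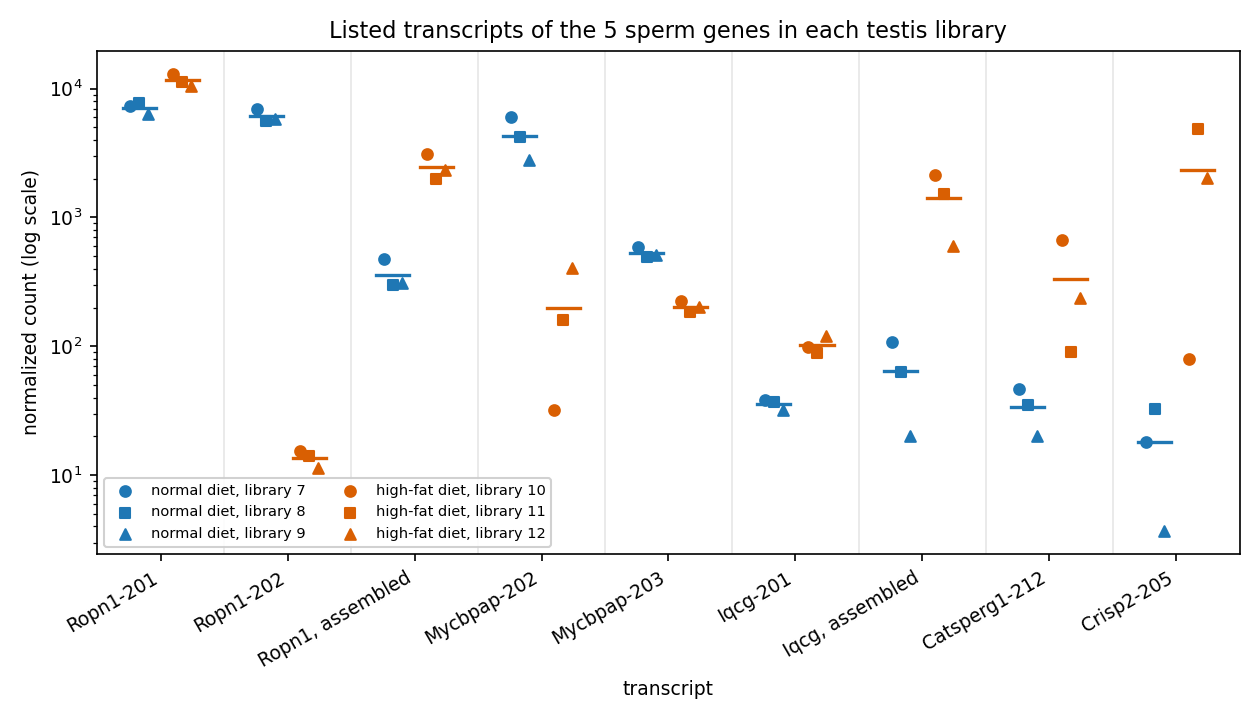
Normalized count (log scale) of each of the 9 transcripts in each library, with normal-diet libraries in blue, high-fat libraries in orange and a bar at the mean of 3. Ropn1-202 drops from about the level of Ropn1-201 to between 11.4 and 15.4, while the high-fat libraries of Crisp2-205 spread from 80.4 to 4859.

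Ropn1 encodes ropporin, a fibrous sheath protein that binds A-kinase anchoring proteins through a domain like that of the regulatory subunit of protein kinase A. All 3 listed transcripts of the locus lie on the forward strand of chromosome 16 (GRCm38). The canonical Ropn1-201 (chr16:34651188-34678618) has 6 exons. Ropn1-202 (chr16:34649921-34677311) starts in another first exon 1267 bases upstream and stops after the fifth exon, 110 bases past the end that GENCODE M21 gives for it and flags as not found. The assembled transcript (chr16:34649828-34678618) starts 93 bases further upstream, and its length of 981 bases equals that of the extended upstream exon plus exons 2 to 6 of Ropn1-201. The annotated protein start lies in exon 2, which both annotated models share. As modelled, these 2 thus differ in their coding sequence at the end and not at the start. Because the end of Ropn1-202 is flagged as not found, its true coding end is not known. The exons of the assembled transcript are not in the files and are inferred from that length. The reading frame of Ropn1-201 spans 639 bases with its stop codon, of which 572 lie before the last exon. The remaining 67 coding bases are shown because the model of Ropn1-202 lacks them. They lie at chr16:34678416-34678482 on the forward strand, and the capitals mark the stop codon. Beside them stand the first 60 coding bases, common to both annotated models, at chr16:34666696-34666755 with the start codon in capitals.
Ropn1 first coding bases, both annotated models: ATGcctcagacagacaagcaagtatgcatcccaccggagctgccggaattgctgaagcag
Ropn1-201 coding part of the last exon: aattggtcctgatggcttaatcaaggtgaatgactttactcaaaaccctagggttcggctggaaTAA

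Ropn1-202 had 6905, 5606 and 5833 normalized counts in libraries 7, 8 and 9 of the normal diet, against 15.4, 14.0 and 11.4 in libraries 10, 11 and 12. All 3 normal-diet libraries were high and all 3 high-fat libraries were at 15.4 or less, with little spread on either side. The mean was 6115 ± 694 on normal food and 13.6 ± 2.03 on high-fat food (SD, n = 3 each), which is 449-fold lower, and the lowest normal-diet library exceeded the highest high-fat library 364-fold. The fitted log2 fold change was -8.80 ± 0.28 (SE, edgeR). By the authors' p this transcript ranked 1 of all 831.

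Its canonical neighbour moved the other way and much less. Ropn1-201 had 7278, 7693 and 6330.1 normalized counts under the normal diet against 13072, 11339 and 10569 under high-fat feeding. Each high-fat library lay above each normal-diet library, with a gap of 1.37-fold between the groups. The mean went from 7100.2 ± 698 to 11660.2 ± 1282, 1.64-fold higher, and the log2 fold change was 0.72 ± 0.14. This value depends on how the libraries are scaled to each other, since it was 0.36 with TMM and 0.19 ± 0.18 with the size factors of DESeq2, both computed from the listed transcripts alone. The assembled Ropn1 transcript had 476, 298 and 308 normalized counts with normal food and 3089, 1999 and 2326 with high-fat food, so that all 3 high-fat libraries were high. Its mean went from 361 ± 100.4 to 2471 ± 559, 6.85-fold higher.

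Added over the 3 transcripts, the Ropn1 locus had 14659.7, 13597 and 12471 normalized counts on normal food and 16176, 13353 and 12906 on high-fat food. These sums overlapped between the diets, in contrast to each transcript by itself. The means were 13576 ± 1094 and 14145 ± 1773, and the log2 fold change of the sum was 0.06 ± 0.14. Its direction was not fixed, since the value was -0.33 with TMM, -0.46 with DESeq2 size factors and -0.05 without high-fat library 10. Those 2 scalings were computed from listed transcripts alone, all of them called for this contrast. They shifted the log2 fold changes of the listed transcripts by medians of -0.35 and -0.52. Transcripts of the gene that the table does not list are outside these sums.

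Shares within the locus need no scaling between libraries. Ropn1-202 held 47.1%, 41.2% and 46.8% of the listed Ropn1 counts under the normal diet against 0.0953%, 0.105% and 0.0885% under high-fat feeding. Ropn1-201 went from 52.3% ± 3.72 to 82.5% ± 2.13, and the assembled transcript from 2.64% ± 0.549 to 17.4% ± 2.14 (SD, n = 3 each). In every high-fat library both were above every normal-diet library. Grouped by their first exon, the models with the upstream exon went from 47.7% ± 3.72 to 17.5% ± 2.13 of the locus, and their summed level was 2.61-fold lower, from 6476 ± 794 to 2485 ± 560. Grouped by their end, the models that carry the last coding exon went from 55.0% ± 3.30 to 99.9%, and their summed level from 7461 ± 722 to 14131 ± 1771.

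If the assembled transcript has the exons that its length implies, each base of Ropn1-202 is also part of it, and the counts of the 2 models then depend on how reads over shared exons were assigned. Against the other annotated Ropn1 transcripts, 18.2% of the 31-base stretches of Ropn1-202 and 11% of those of Ropn1-201 were found in that transcript only, and none occurred in another gene. The part of read assignment in the diet differences of Ropn1-202 and the assembled transcript was not tested, since reads were not used here.

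**Figure D2:**
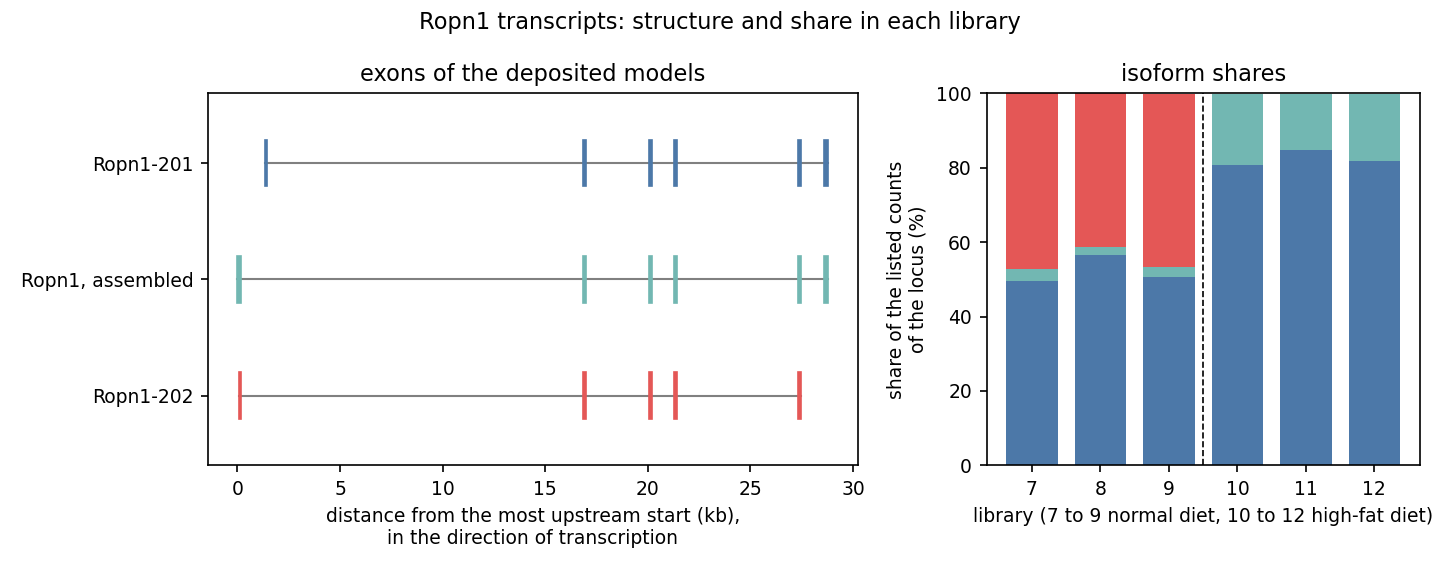
Left, exons of the 3 deposited Ropn1 models against distance in kb from the most upstream start, with the exons of the assembled model placed as its length implies; right, share of the listed Ropn1 counts (%) held by each model in each library, in the same colours. The share of Ropn1-202, at the top of each bar, goes from 41.2% or more in the normal-diet libraries to 0.105% or less in the high-fat libraries.

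Mycbpap encodes a partner of the Myc-binding protein AMY-1 and was placed here with the central apparatus of the axoneme. Both listed transcripts share their ends, chr11:94501347-94521850 on the reverse strand, and differ by 1 intron. Mycbpap-202 has 19 exons and is the canonical coding form, with 932 coding codons. Mycbpap-203 has 18 exons, is annotated as a retained-intron transcript, and keeps intron 5, which spans 247 bases at chr11:94512344-94512590. Read on from the annotated start codon, the frame of Mycbpap-203 meets its first stop after 240 codons, at base 96 of the kept intron. The intron is shown because its presence is all that distinguishes the 2 models, and its capitals mark the first and last 2 bases, which are the splice sites, and that stop codon.
Mycbpap kept intron: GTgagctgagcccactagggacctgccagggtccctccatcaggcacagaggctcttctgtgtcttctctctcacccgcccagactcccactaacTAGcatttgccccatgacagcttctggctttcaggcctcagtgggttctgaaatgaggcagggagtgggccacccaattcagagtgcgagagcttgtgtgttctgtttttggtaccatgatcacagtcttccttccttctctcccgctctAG

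The coding transcript Mycbpap-202 had 5977, 4202 and 2793 normalized counts with normal food and 31.9, 159 and 407 with high-fat food. Every high-fat library was low, but the 3 differed from each other 12.7-fold. The mean went from 4324 ± 1595 to 199 ± 191, 21.7-fold lower, and the log2 fold change was -4.44 ± 0.98. Without high-fat library 12, the highest of the 3, it was -5.50. For Mycbpap-203 the values were 591, 493 and 512 on normal food and 224, 185 and 201 on high-fat food, tight within both groups. Its mean was 2.62-fold lower, from 532 ± 52.1 to 203 ± 19.2, with a log2 fold change of -1.39 ± 0.31.

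Both forms were thus lower on the high-fat diet, the spliced one by more. Their sum went from 4856 ± 1637 to 403 ± 183 normalized counts, 12.1-fold lower, without overlap between the diets. Other annotated transcripts of the gene, which are not listed, are outside this sum. The retained-intron form made up 9.003%, 10.5% and 15.5% of the listed Mycbpap counts in libraries 7, 8 and 9 and 87.5%, 53.8% and 33.1% in libraries 10, 11 and 12. Its mean share was 11.7% ± 3.40 under the normal diet against 58.1% ± 27.5 under high-fat feeding. The order of the 3 high-fat libraries in this share follows the spliced form, since Mycbpap-203 itself varied only 1.21-fold among them. In each high-fat library the share was above that in each normal-diet library, yet in library 12 the spliced form was still the more abundant. Against the other annotated Mycbpap transcripts, 0.956% of the 31-base stretches of Mycbpap-202 and 8.18% of those of Mycbpap-203 were found in that transcript only. The shares therefore depend on how reads over shared exons were assigned, which was not tested.

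**Figure D3:**
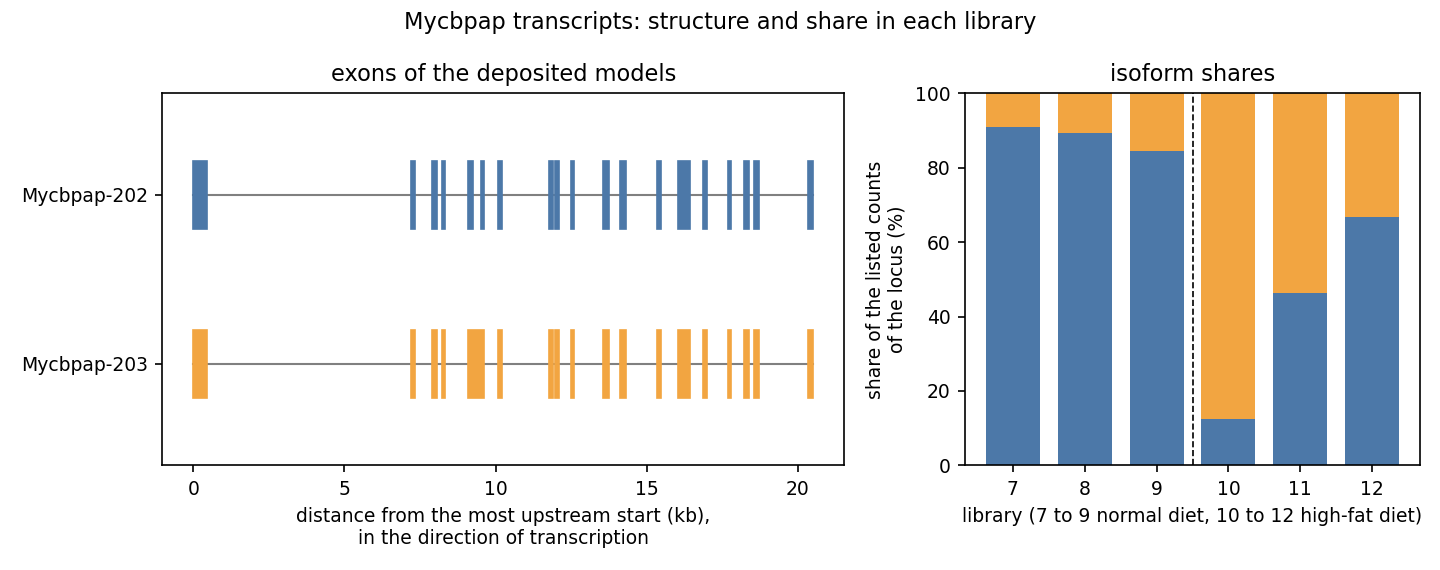
Left, exons of the 2 Mycbpap models against distance in kb from their shared start, in the direction of transcription; right, share of the listed Mycbpap counts (%) held by each model in each library, in the same colours. The models differ by the intron kept in Mycbpap-203, whose share is at most 15.5% in the normal-diet libraries and between 33.1% and 87.5% in the high-fat libraries.

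Iqcg encodes a calmodulin-binding subunit of the nexin-dynein regulatory complex of the axoneme. Its 2 listed transcripts share their upstream end at position 33056510 on the reverse strand of chromosome 16. Iqcg-201 (chr16:33040769-33056510) is a short noncoding form of 5 exons, whose end GENCODE flags as not found. Its deposited model starts 292 bases upstream of the GENCODE one. The assembled Iqcg transcript (chr16:33005664-33056510) has 12 exons and 6552 bases, 1 exon more than the coding Iqcg-202, which the table does not list, and reaches 7019 bases past the 3' end of Iqcg-202. It overlaps the noncoding gene Gm17106 on its own strand and Lrch3 and Rpl35a on the other. Whether strand was used in counting is not given in the sources used here, so its assignment to Iqcg is uncertain.

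Iqcg-201 had 38.3, 37.1 and 32.3 normalized counts with normal food and 98.0, 88.1 and 121 with high-fat food. The counts are low but tight, and each high-fat library was above each normal-diet library. The mean was 2.85-fold higher, 102 ± 16.98 against 35.9 ± 3.20, with a log2 fold change of 1.51 ± 0.31, or 0.99 with DESeq2 size factors. The assembled transcript had 108, 62.8 and 20.3 normalized counts on normal food and 2146, 1524 and 603 on high-fat food. Libraries of 1 diet differed up to 5.35-fold, less than the 22.3-fold between the means of 63.9 ± 44.1 and 1424 ± 776. The log2 fold change was 4.48 ± 0.84, and 5.10 without normal-diet library 7. Summed over its listed transcripts only, the locus went from 99.7 ± 47.1 to 1527 ± 763, a log2 fold change of 3.94 ± 0.64.

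Within the Iqcg locus the noncoding form made up 26.1%, 37.1% and 61.4% of the listed counts under the normal diet. Under high-fat feeding it made up 4.37%, 5.47% and 16.7%. Unlisted forms such as Iqcg-202 are outside these shares. The groups did not overlap, with means of 41.5% ± 18.1 and 8.85% ± 6.84. The assembled model has 6552 bases against 1078 for Iqcg-201, and the same shares per base of the deposited length were higher, 79.0% ± 11.2 and 34.2% ± 18.1.

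Catsperg1 encodes a gamma subunit of CatSper, the calcium channel of the sperm tail that is needed for hyperactivated swimming. Mice carry a near-identical copy of the gene, Catsperg2, at chr7:29697219-29727032. The listed transcript Catsperg1-212 (chr7:29181538-29214217, reverse strand) has 29 exons. Its coding sequence matched that of Catsperg2-209 at 96.5% of 3432 aligned bases, with 122 differences, and 54.2% of its 31-base stretches also occurred in other genes, chiefly Catsperg2. The first 60 coding bases of both are shown as an example, at chr7:29210855-29210914 for Catsperg1 and chr7:29725410-29725469 for Catsperg2, both on the reverse strand. Capitals mark the 1 base that differs, and 1 difference was also the median over 3273 windows of this length.
Catsperg1-212: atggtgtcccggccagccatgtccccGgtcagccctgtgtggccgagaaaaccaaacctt
Catsperg2-209: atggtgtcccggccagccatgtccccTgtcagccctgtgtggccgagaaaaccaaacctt

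Catsperg1-212 had 46.8, 35.2 and 20.3 normalized counts with normal food and 665, 91.1 and 238 with high-fat food. High-fat library 10 was the highest and library 11 the lowest of its group, 7.30-fold apart, and the nearest libraries of the 2 diets were 1.95-fold apart. The mean was 9.72-fold higher, 34.1 ± 13.3 against 331 ± 298, with a log2 fold change of 3.28 ± 0.85. Without library 10 it was 2.27. No Catsperg2 transcript is listed in the table, every 31-base stretch of Catsperg1-212 also occurs in another annotated transcript of the gene, and how reads common to both copies were assigned is not given in the sources used here, so the value is uncertain.

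Crisp2 encodes a cysteine-rich secretory protein found in the acrosome and in the outer dense fibres of the tail. Crisp2-205 (chr17:40783238-40794146, reverse strand) is a non-canonical coding transcript of 8 exons whose end GENCODE flags as not found. Its 515 coding bases are the beginning of the 732 of Crisp2-201, the full-length form, which the table does not list. Crisp2-205 also has an exon of 32 bases, at chr17:40791877-40791908, that Crisp2-201 lacks. The sequences shown are the last coding exon of the listed model, at chr17:40783238-40783335, and the exon that follows it in Crisp2-201, at chr17:40767286-40767374, since the listed model ends between them. No capitals are used in this pair.
Crisp2-205 last exon: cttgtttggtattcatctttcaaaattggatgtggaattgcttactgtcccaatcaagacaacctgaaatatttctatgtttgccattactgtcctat
Crisp2-201 next coding exon: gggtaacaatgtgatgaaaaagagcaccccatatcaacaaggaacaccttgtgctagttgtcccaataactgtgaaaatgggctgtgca

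Crisp2-205 had 18.1, 32.4 and 3.69 normalized counts on normal food and 80.4, 4859 and 2022 on high-fat food. Libraries 11 and 12 were high, whereas library 10 lay 2.48-fold above the highest normal-diet library and 60.5-fold below library 11. The mean was 18.0 ± 14.3 under the normal diet against 2320.4 ± 2403 under high-fat feeding, so that the SD of the high-fat group exceeded its mean. The log2 fold change was 7.0 ± 1.73. It was 5.86 without library 11, 7.57 without library 10 and 7.73 without normal-diet library 8. Only 1.79% of the 31-base stretches of Crisp2-205 are absent from the other Crisp2 transcripts, and none occurs in another gene. Its level therefore depends on how reads over shared exons were assigned, which was not tested. In the authors' deposited tables Crisp2 was a member of the gene set cell-cell adhesion, with 12 measured members, 10 of them higher, at p = 0.00244 and q = 0.176.

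**Figure D4:**
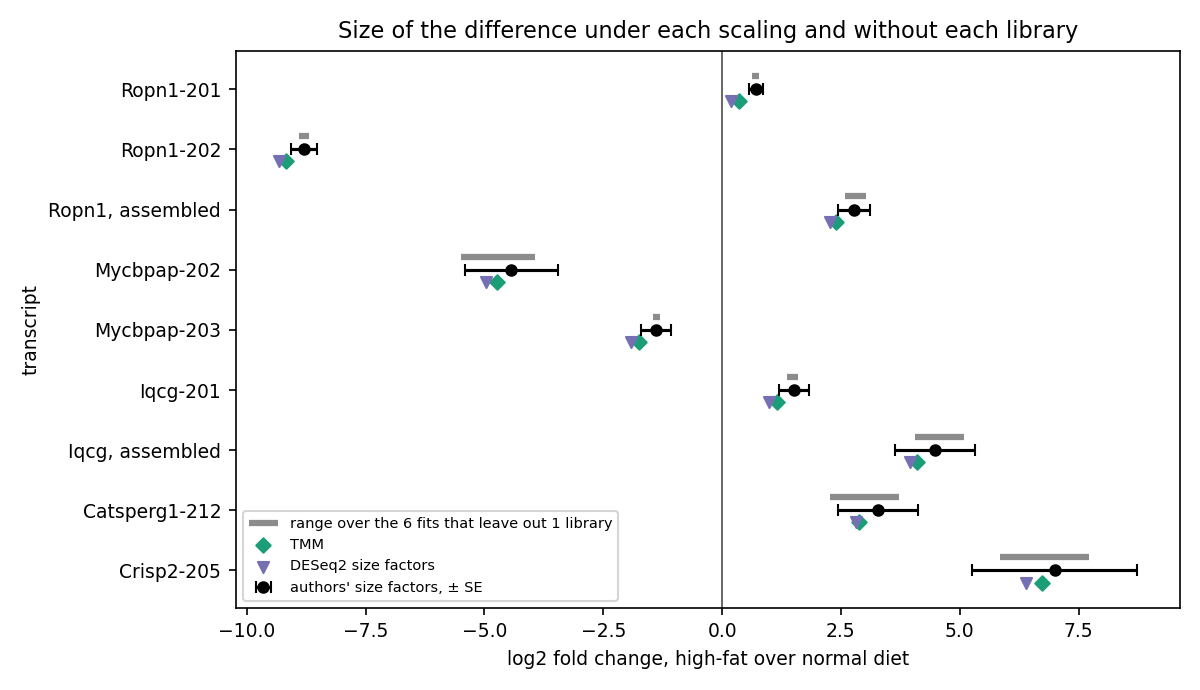
Log2 fold change (high-fat over normal diet) of the 9 transcripts, with black points and ± SE from the fit with the authors' size factors, diamonds and triangles for 2 other scalings, and grey bars for the range over the 6 fits that leave out 1 library. No transcript changes sign. Leaving out a library could not change one, since the diets do not overlap in any of the 9. The grey bar is longest for Crisp2-205, from 5.86 to 7.73.

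Per kilobase of the deposited length, the scale on which levels of different transcripts can be compared, Ropn1-202 stood at 8927 ± 1013 and Ropn1-201 at 8115 ± 798 normalized counts per kb on the normal diet. Those neighbours in the order did not differ beyond their spread. Mycbpap-202 followed at 1320.0 ± 487, and the other 6 lay between 8.74 for Catsperg1-212 and 368 for the assembled Ropn1 transcript. On the high-fat diet Ropn1-201 was the highest at 13326 ± 1465 per kb. Next came Crisp2-205 at 3061 ± 3171 and the assembled Ropn1 transcript at 2519 ± 570, whose levels overlapped. The lowest was Ropn1-202 at 19.9 ± 2.96 per kb.

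Spread between libraries of 1 diet also set the transcripts apart. The coefficient of variation was between 9.46% and 16.6% on the high-fat diet for Ropn1-201, Ropn1-202, Mycbpap-203 and Iqcg-201, and 22.6% for the assembled Ropn1 transcript. It was 54.5% for the assembled Iqcg transcript, 90.0% for Catsperg1-212, 95.6% for Mycbpap-202 and 104% for Crisp2-205. Library 10 stood at an end of the high-fat group in all 4, as the highest for the assembled Iqcg transcript and Catsperg1-212 and the lowest for Crisp2-205 and Mycbpap-202. Over the 9 transcripts it was the highest of the 3 in 6 and the lowest in 2, and normal-diet library 7 was the highest of its group in 7. No transcript changed sign in the fits without either library, which follows from the lack of overlap between the diets.

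Other genes of the same structures were read from 7 lists of 176 symbols, 170 of them in GENCODE M21, which cover the CatSper channel, the fibrous sheath, the regulatory complex and radial spokes, the central apparatus, dynein arms and their assembly, outer dense fibres and midpiece, and acrosome and fusion proteins. Among transcripts with an Ensembl identifier, the 5 genes above were the only ones of these lists in the table, with 7 transcripts, 4 higher and 3 lower. When assembled transcripts were added by overlap with a gene on the same strand, 18 genes had 23 transcripts, 17 higher and 6 lower, beside 460 higher and 371 lower in the whole table. The median log2 fold change of the 23 was 2.78, against 1.42 over the table. Nothing is read from that difference, since both medians mix higher and lower transcripts and the 23 include the members. Of the 14 transcripts that are not members, 6 overlap more than 1 gene, so their names are uncertain. Each of the 14 is an assembled model, and its level is not that of a gene, whose unlisted transcripts are not seen. The part of read assignment between models in their differences was not tested.

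All 5 assembled transcripts over dynein genes were higher on the high-fat diet, as were 460 of all 831 listed transcripts. Nothing is read from the direction of 5 transcripts listed for that contrast. The transcript over Dnaaf1, a factor that assembles dynein arms, had counts of 0 in each normal-diet library. In the high-fat libraries its counts were 27895, 19687 and 37615. No other Dnaaf1 transcript is listed, so a count of 0 for this model is not a count of 0 for the gene. Over Dnah12, an inner-arm dynein heavy chain, the counts were 0, 2 and 1 with normal food and 6, 6078 and 1761 with high-fat food, with library 10 near the normal-diet group. The transcript over Dnah6 went from 20.7 ± 10.7 to 708 ± 346 normalized counts. Of the other 2, both over Dnah7b, the longer reaches into Dnah7c and had counts of 0 with normal food and of 8555, 0 and 4948 with high-fat food.

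The 3 listed transcripts of regulatory complex genes were also higher, but 2 of them are the Iqcg members described above. The level of the other, over Gas8, went from 56.9 ± 18.2 to 220.0 ± 56.6. In the midpiece list, the transcript over Pmfbp1, which joins the sperm head to the tail, had counts of 102, 72 and 139 on normal food and of 38, 5344 and 4943 on high-fat food. Library 10 lay below every normal-diet library there, and it was also the low high-fat library for Crisp2-205 and the Dnah12 transcript. A transcript over Sept4, the septin of the annulus, and the noncoding Gm11492 went from 267 ± 37.9 to 457 ± 5.69.

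Fibrous sheath and acrosome genes had transcripts on both sides. Besides Ropn1, the transcript over Ldhc, the lactate dehydrogenase of sperm, had counts of 9083, 0 and 19612 on the normal diet and of 0 in each high-fat library. In normal-diet library 8 it was therefore at the high-fat level. No other Ldhc transcript is listed, so the level of the gene is not known from this model. At Spaca3, which encodes a lysozyme-like protein of the acrosome, 1 assembled transcript went from 120 ± 25.6 to 893 ± 174 and another from 169 ± 87.4 to 2.05 ± 3.55, and the 2 models coincide at 1 end only. Transcripts over Acr, the acrosomal protease acrosin, and Calr3, a chaperone of spermatids, were higher on the high-fat diet, at 10.02 ± 1.46 against 64.3 ± 36.1 and at 20.6 ± 4.04 against 218 ± 143. The central apparatus list had the 2 Mycbpap transcripts alone, and the CatSper list had Catsperg1-212 and a transcript over Tmem262 and Cdca5 that was lower, 383 ± 84.0 against 146 ± 38.7.

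**Figure D5:**
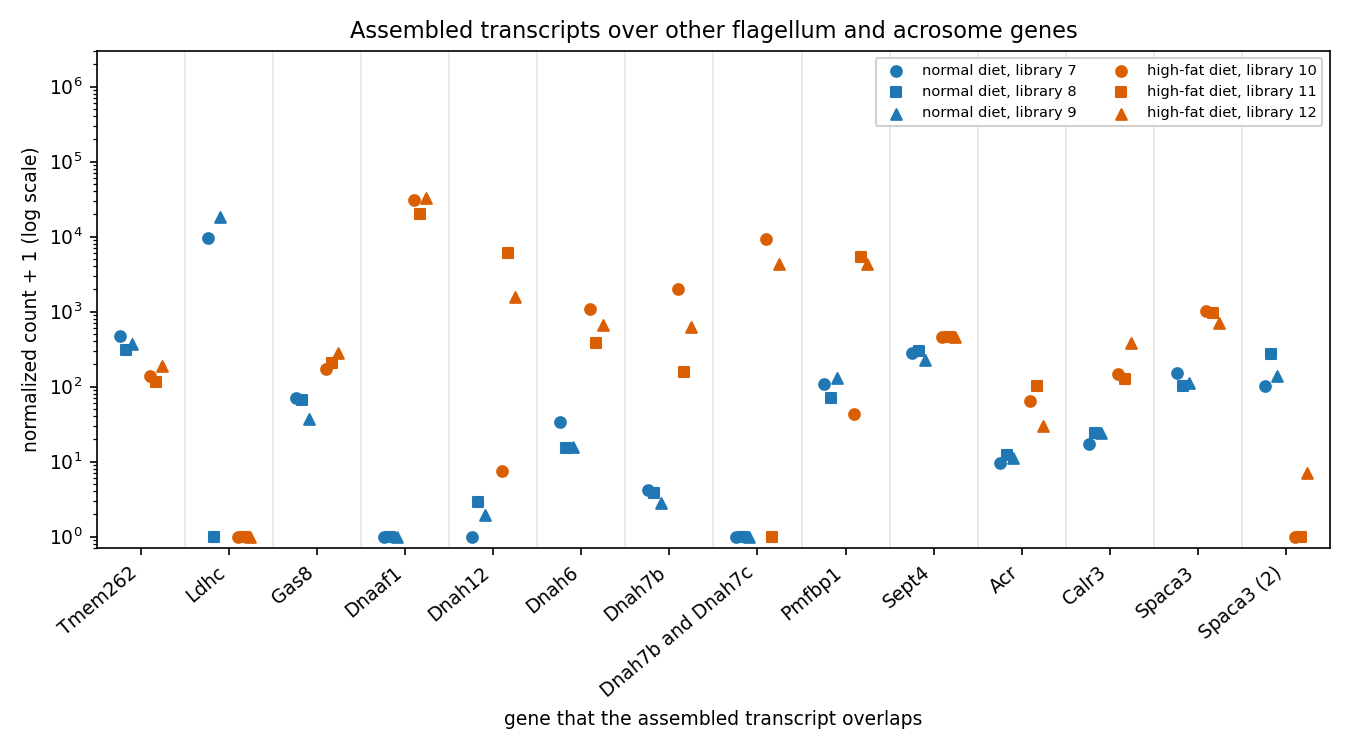
Normalized count plus 1 (log scale) in each library of the 14 assembled transcripts that overlap other genes of the 7 lists, with normal-diet libraries in blue and high-fat libraries in orange. Points at the bottom line are counts of 0, as in all 3 high-fat libraries for Ldhc and in all 3 normal-diet libraries for Dnaaf1.

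The listed transcripts whose profile over the 6 libraries was most like that of a member were found by the root mean square difference of centred log2(normalized count + 1) values. For Ropn1-201 they were Kifc1-204, with a difference of 0.09, and the transcript over Sept4, with 0.11, among 478 candidates. Mycbpap-202 was closest to Ubn1-203, with 0.66, and to an assembled transcript over Dido1, with 0.705. Catsperg1-212 was closest to assembled transcripts over Ulk4, with 0.36, and over Ckap2l, with 0.49. The assembled Iqcg transcript was closest to an assembled transcript over Crem, with 0.71, and to Rpl41-202, with 0.73. Crisp2-205 had no profile nearer than 1.14, that of an assembled transcript over Bckdha, followed by 1.25 for 1 that overlaps Zfp653, Ecsit and Gm49318. All of these had been listed for the same contrast.

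The label testis could be checked in the table only through transcripts that the authors called. No annotated transcript of 30 germ cell marker genes was listed, and 3 assembled ones overlapped Acr, Ldhc and Piwil1. Those over Acr and Piwil1 were higher on high-fat food and that over Ldhc was lower. The level over Piwil1 went from 46.0 ± 24.8 to 199 ± 62.2. Since only 0.868% of all tested transcripts were listed, nothing is read from marker genes without a listed transcript. Of 8 peritubular and stromal marker genes, 3 had 4 listed transcripts, and these summed to between 3975 and 5756 normalized counts with normal food and between 9646 and 12920.0 with high-fat food. Of these 4, 3 were higher and 1 was lower on high-fat food. The matrix protein Sparc went from 2991 ± 658 to 7752 ± 1174, and of the receptor Pdgfrb, Pdgfrb-201 went from 0 to 293 ± 28.8 while Pdgfrb-202 went from 293 ± 52.1 to 2.63 ± 4.56. The Leydig cell list of 7 genes had 1 listed transcript, Hsd3b6-202, with counts of 1590, 1722 and 8 under the normal diet against 15, 33 and 5, so that normal-diet library 9 lay with the high-fat group. No transcript was listed for the marker genes of Sertoli cells, endothelium, macrophages, lymphocytes, blood, epididymis or fat. In whole testis, fewer germ cells of a stage and less RNA per cell cannot be told apart, and the part of the stromal and Leydig cell transcripts in the differences above was not tested.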

How the data were processed

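Per the labels' protocols, dUTP libraries were made from Trizol-extracted RNA of 50 mg of testis. The submitters' processing notes list Trimmomatic, HISAT2, StringTie and DESeq with the build GRCm38 and give no version. The deposited table holds whole-number estimated counts per transcript and library, per the file headers. It also holds the authors' rounded scaled counts (a score), their mean (a signal), the authors' fold change as a ratio and as log2, and their p-values before and after adjustment. The deposited set tables give a p-value and a q-value. Per-sample columns left unused numbered 0.

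Size factors (0.908 to 1.14) were recovered as the deposited count over the scaled value at counts of at least 5000. Whole library depth is not given in the sources used here; listed transcripts summed to 362790 to 490603 counts. From p, adjusted p and rank, the authors tested 95751 transcripts.

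Fits used edgeR 4.0.16 in R 4.3.3 (glmQLFit, filterByExpr with a minimum count of 10) on the 831 transcripts, of which 680 passed the filter in the main fit. Alternatives were TMM, DESeq2 1.42.0 and limma-voom 3.58.1. The edgeR fit was tried on simulated data with the same spread for all transcripts, which differs from these data. The fits serve for fold changes and standard errors, since every transcript had been called on the same contrast. Each standard error is the absolute log2 fold change over the square root of the F statistic of the edgeR test. The variance behind it was estimated from listed transcripts alone. Locus sums add counts of listed transcripts with the same locus identifier. Models were compared with GENCODE M21, and sequences came from GENCODE M21 (GRCm38).

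All transcripts of the 5 genes are named, and of each list up to 5 genes with the highest means. The members, lists and tests were chosen with earlier results of these data known.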

Additional observations from a re-analysis of the deposited data

How the results depend on the processing

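The 9 transcripts kept their direction in all 99 fits under 11 alternatives. The kept direction is no support, since the same contrast in the same libraries had listed all 9. With diets that do not overlap, leaving out a library could not change a sign. Of the 99 values, 89 stayed within the spread between libraries. All 10 that moved further did so under another scaling, TMM or DESeq2 size factors. Over the table these scalings shifted the log2 fold changes by medians of -0.35 and -0.52. Repeated calls on this table are not given, since each transcript had been listed for the same contrast in the same libraries. The log2 fold change of the Ropn1 sum, 0.06, became -0.33 with TMM and -0.46 with DESeq2 size factors, and ranged from -0.05 to 0.12 without 1 library. For the Iqcg sum the range was 3.55 to 4.32. Crisp2 has 1 listed transcript, so its range of 5.86 to 7.73 is that of Crisp2-205 itself. Per base of the deposited length, a setting chosen after seeing the data, the difference in share between the diets became 37.4 percentage points for Ropn1-201, against 30.2, and -51.1 for Ropn1-202, against -44.9. Without 1 library the differences ranged from 28.9 to 32.3 for Ropn1-201, from -46.8 to -43.9 for Ropn1-202, from 13.9 to 15.9 for the assembled Ropn1 transcript and from -40.4 to -22.8 for Iqcg-201. The count of listed transcripts of flagellum and acrosome genes was 7, and 23 with assembled ones. The cause of these shifts was not tested beyond the change of scale or of list itself. No paired analysis was possible because the diets share no replicate number. Low counts limit the precision of the normal-diet values of Crisp2-205, Catsperg1-212 and both Iqcg transcripts and the high-fat value of Ropn1-202.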
